A study of Caenorhabditis elegans with 2 samples.

Results

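The regions described here are stretches of the autosomes of *Caenorhabditis elegans*, chromosomes I to V, that were listed after immunoprecipitation of tagged T07F8.4 protein and whose summit lay inside an exon of a protein-coding gene. They come from the deposited list of the pooled replicates, which the authors named peaks and background, so that it also holds regions that they did not count as peaks. A region was taken when its summit fell in coding sequence (CDS) or in a 3′ untranslated region (3′ UTR). The summit also had to lie over 500 bp from every annotated transcript start of any gene type. Of the 16958 regions of the pooled list, 14192 were autosomal and 3193 met this rule, 2446 of them in CDS and 747 in 3′ UTR. Positions are on build ce11 (WBcel235), with genes of Ensembl release 115.

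Chromatin immunoprecipitation and sequencing (ChIP-seq) was carried out with an antibody against GFP on whole young adult hermaphrodites of strain OP478, 64 h after larvae hatched without food had been synchronized at the first larval stage. All animals carried the unc-119(tm4063) mutation on chromosome III and the integrated transgene wgIs478, from which T07F8.4 is made with a GFP-FLAG tag at its C terminus. The labels give 2 biological replicates of this single group, and no untagged strain, second stage or input sample was analysed here. The line is a single transgenic line with 1 tagged protein, whole animals mix all tissues, and no expression was measured, so tissue identity was not checked and no comparison between conditions could be tested.

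RefSeq describes T07F8.4 as an ELM2 domain-containing protein, and the ELM2 domain is known from proteins of histone deacetylase complexes. Proteins that act on transcription are usually found at promoters, while the exons of a gene are crossed by the elongating polymerase and the last exon holds the 3′ UTR, where the transcript is cleaved and polyadenylated. In the compact worm genome many neighbouring genes are convergent, that is, they are transcribed toward each other and end close together.

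The 4 reproducible CDS summits of chromosomes III and V are shown because they are among the strongest positions within translated sequence. Each run of 30 bases is from the RefSeq sequence of WBcel235, on the strand of the host gene and 5′ to 3′, with the codon that holds the summit in capitals. The F25B5.5 window runs past the end of the CDS and the other 3 lie wholly inside it.
F25B5.5 (chromosome III, minus strand, codon 547): aggacaatccagcATCtgatctataaatat
clec-264 (chromosome V, minus strand, codon 359): tctcttatgacaccGGAgagcagttcaatg
C01G10.9 (chromosome V, plus strand, codon 351): acgaaaattttgacgGATttcggaaactgg
atp-2 (chromosome III, plus strand, codon 310): aggaaggacaagatGTGcttcttttcattg

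Few exonic regions reached the authors' reproducible list, which was selected by the irreproducible discovery rate (IDR). That list held 621 regions, 3.66% of the pooled list, and 435 autosomal regions, 3.07% of the autosomal ones. Of the 3193 exonic regions 16 were in it, or 0.501% (95% Wilson interval 0.309% to 0.812%, counting error only). By comparison, 366 of 6734 autosomal regions within 500 bp of a start were reproducible (5.44%), as were 36 of 1950 farther from starts and outside genes (1.85%) and 16 of 2156 in introns (0.742%). On chromosome X, 1 of 502 exonic regions was reproducible. The share for exons therefore lay below the share for all autosomal regions, and its interval overlapped that of introns, which ran from 0.457% to 1.20%.

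The signal value is the number that the authors' peak caller gave each region. No label or file header used here names its scale, and since no list gives read counts the sequencing depth is unknown. Signal values are used here only to rank and describe regions within a list. The reproducible list consisted exactly of the 621 pooled regions with the highest signal, down to 68.2, so that being reproducible and having high signal are the same property in these data. The exonic regions had a median signal of 22.2 (quartiles 19.2 and 27.7, range 16.99 to 117), against 23.0 for all autosomal regions. Widths carry no information, since 3191 of the 3193 regions were exactly 436 bp wide.

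The 16 reproducible exonic regions lay in 16 host genes, 7 in CDS and 9 in 3′ UTR, and 14 of them were within 500 bp of an annotated end of the host transcript. Of all 3193 exonic regions, 1397 (43.8%) were that close to an end. The highest was in the 3′ UTR of hsp-1, the constitutive cytosolic Hsp70 chaperone, on chromosome IV from 17281201 to 17281385. Its signal was 117.1 in the pooled list, 71.8 in replicate 1 and 49.0 in replicate 2. The summit was 36 bp from the end of hsp-1. The facing gene nra-1, a nicotinic receptor-associated protein gene, had its own reproducible region in its 3′ UTR, from 17281277 to 17281712, with signals of 71.1, 30.03 and 20.8. The annotated ends of this convergent pair are 124 bp apart, the summits are at 17281294 and 17281495, and the intervals overlap, so the regions are not independent of each other.

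Genes for mitochondrial chaperones stood beside hsp-1. The region in the 3′ UTR of hsp-6, the mitochondrial Hsp70, had a pooled signal of 80.8, with 29.3 in replicate 1 and 53.3 in replicate 2. The region in the 3′ UTR of hsp-60, the mitochondrial chaperonin, had 73.2, with 29.3 and 44.5, and its summit was 2 bp from the annotated end. Both summits lay within 38 bp of the annotated end of the gene. On the chaperone list, which takes in the Hsp70, Hsp90, chaperonin and DnaJ families, 23 of 53 genes had an exonic region and 3 a reproducible one. Of all 15190 autosomal coding genes with exonic sequence over 500 bp from a start, 16.4% had an exonic region and 0.105% a reproducible one.

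Further 3′ UTR regions lay in genes of translation, nuclear transport, splicing and development. The rpl-3 region, in a gene for a protein of the large ribosomal subunit, had a pooled signal of 98.8, with 58.5 in replicate 1 and 27.2 in replicate 2. It was the only one of the 16 whose host also had a reproducible region within 500 bp of its start, and the start region was the higher, with a signal of 233.9. The ran-1 region, in the gene for the Ran GTPase of nuclear transport, had 89.3, with 55.8 and 33.8.

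The zinc finger gene lin-29, which acts in the larval-to-adult switch, had a pooled signal of 89.1 with 49.0 in replicate 1 and 40.3 in replicate 2, and its summit was 14 bp from the end. The splicing factor gene rsp-5 had 69.97, with 23.3 and 47.7. C05D11.8 had the lowest pooled signal of the 16, 69.90, with 45.4 and 27.2, and the highest GC content of the 16, 60.4% within 50 bp of the summit. All 9 regions in 3′ UTR had summits between 2 and 446 bp from a host end.

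Of the 7 reproducible CDS regions, 5 had their summit in the last exon, against 24.7% of all CDS regions. The lmd-2 region, in a LysM domain gene on chromosome I, had a pooled signal of 109.0 with 64.7 in replicate 1 and 45.1 in replicate 2, 117 bp from the end. The annotated ends of lmd-2 and its convergent neighbour are 2 bp apart. The interval overlaps that of another exonic region, in rpl-4, with a pooled signal of 40.4, so these regions are not independent of each other. The F25B5.5 region, in a gene that RefSeq describes as CDK5RAP1-like, had 94.5 with 42.8 and 53.4. The clec-264 region, in a gene for a C-type lectin domain protein, had 94.3 with 52.4 and 38.6. The summits in lmd-2, F25B5.5, clec-264, C01G10.9 and suro-1 lay in the last exon, 87 to 179 bp from the end.

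C01G10.9, a methylthioribose-1-phosphate isomerase gene, had a pooled signal of 83.0, with 35.6 in replicate 1 and 47.2 in replicate 2. The suro-1 region, in a putative carboxypeptidase gene, had 74.4, with 37.2 and 39.9. Both exceptions in the set were in CDS. The atp-2 region, in the gene for the beta subunit of ATP synthase, had 80.6, with 39.5 and 42.3, and lay 1033 bp from the end in exon 4. The T28F4.4 region, in a PUM-HD domain gene, had 75.8, with 43.3 and 22.5, and lay 6305 bp from the nearest end, 17.6% of the way along the spliced transcript.

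All 16 reproducible regions had a summit within 100 bp in each replicate list. Their values ran from 23.3 to 71.8 in replicate 1 and from 20.8 to 53.4 in replicate 2. These ranges are on the scales of separate lists and are not compared with each other. Because the selection compared the replicates, presence in both lists is part of how the regions were chosen. The regions next to the threshold are given by their pooled signal. Just inside were suro-1 (74.4), hsp-60 (73.2), nra-1 (71.1), rsp-5 (69.97) and C05D11.8 (69.90). Just outside were F53E2.2 (67.5), gpr-158, a gene with a GPCR family 3 domain (66.9), the hnRNP-like gene sqd-1 (66.7), the translational repressor gene ifet-1 (66.0) and the phosphatase regulatory subunit gene rsa-1 (65.5). Of these, F53E2.2 had no summit within 100 bp in replicate 1.

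**Figure D1:**
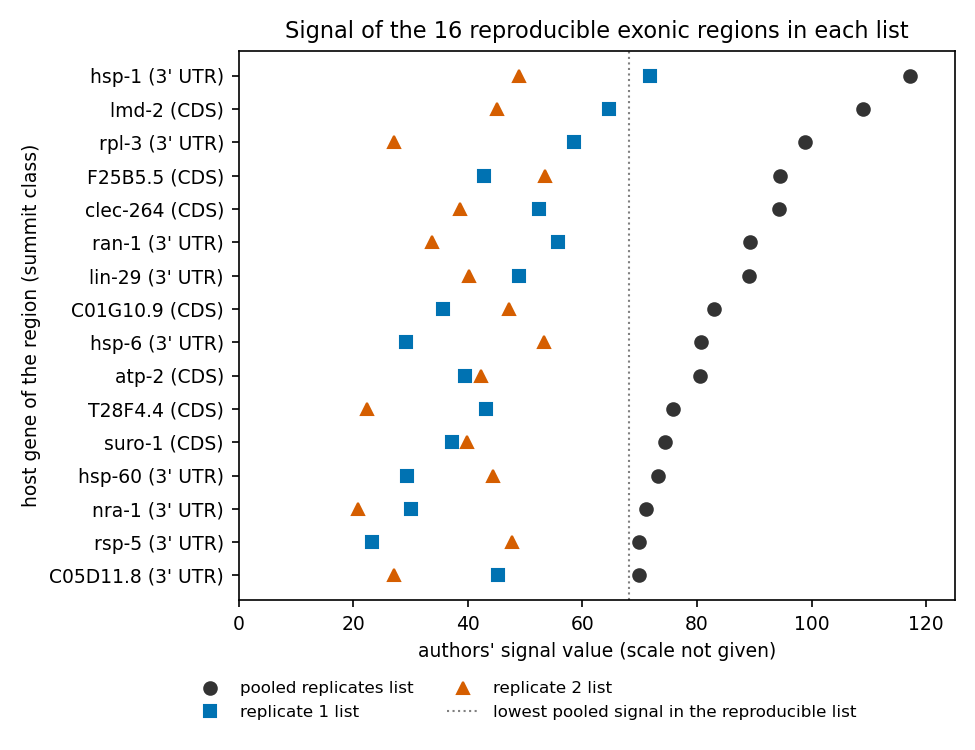
Authors' signal value (horizontal axis, scale not given) of the 16 reproducible exonic regions, named by host gene and summit class, in the pooled list (circles), replicate 1 (squares) and replicate 2 (triangles). Pooled values run from 69.9 to 117.1, right of the dotted line at 68.2, and each region has a value in every list.

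Summits were denser in 3′ UTR than in CDS per length of sequence. The eligible sequence, meaning all autosomal CDS and 3′ UTR over 500 bp from a transcript start, was 16087644 bp, of which 88.2% was CDS and 11.8% 3′ UTR. Of the summits 76.6% were in CDS and 23.4% in 3′ UTR (Wilson interval of the 3′ UTR share 21.96% to 24.9%). This is 17.2 regions per 100 kb of CDS and 39.5 per 100 kb of 3′ UTR. The separately made replicate lists gave 3′ UTR shares of 20.9% in replicate 1 (758 of 3623 regions) and 22.04% in replicate 2 (702 of 3185).

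Reproducible regions were 0.493 per Mb of CDS and 4.76 per Mb of 3′ UTR, or 7 of 2446 CDS regions (0.286%, interval 0.139% to 0.590%) and 9 of 747 3′ UTR regions (1.20%, 0.635% to 2.27%). These intervals did not overlap in the pooled list. In each replicate list, a region was counted when its summit lay within 100 bp of one in the reproducible list. By this measure the intervals overlapped in replicate 1, with upper CDS and lower 3′ UTR bounds of 0.550% and 0.536%. In replicate 2 they did not, with bounds of 0.471% and 0.877%. With the overlapping hsp-1 and nra-1 regions counted once, the 3′ UTR share of the pooled list was 1.07% (interval 0.544% to 2.10%), which overlaps that of CDS. This count was added after the data were seen. Median signal was 21.8 in CDS (quartiles 19.1 and 26.7) and 24.4 in 3′ UTR (20.1 and 30.9). Both classes were far below the 5.44% reproducible near transcript starts.

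Higher signal went with 3′ UTR position within each list. When the regions of a list were ranked by signal and put in 10 groups of equal size, the 3′ UTR share of the pooled list was 18.8% in the lowest group and 39.7% in the highest (Wilson interval 34.5% to 45.1%). In replicate 1 it was 14.6% and 39.7%, and in replicate 2 17.6% and 36.4%. The share of summits within 500 bp of a host end was 38.9% in the lowest group and 65.0% in the highest of the pooled list. It was 34.5% and 63.9% in replicate 1 and 34.9% and 55.8% in replicate 2. In the ninth group the share was 48.3% in the pooled list, 42.5% in replicate 1 and 45.0% in replicate 2.

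Among CDS summits alone, the median distance to the end was 1244 bp in the lowest group and 607 bp in the highest of the pooled list. It was 1283 and 718 bp in replicate 1 and 1313 and 933 bp in replicate 2. Both replicate lists were made with the same further file, taken to be the control, so they are not fully separate measurements. Of the 44 exonic regions with signal from 50 up to the threshold, 27 were in 3′ UTR and 37 lay within 500 bp of an end, close to the make-up of the reproducible 16.

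**Figure D2:**
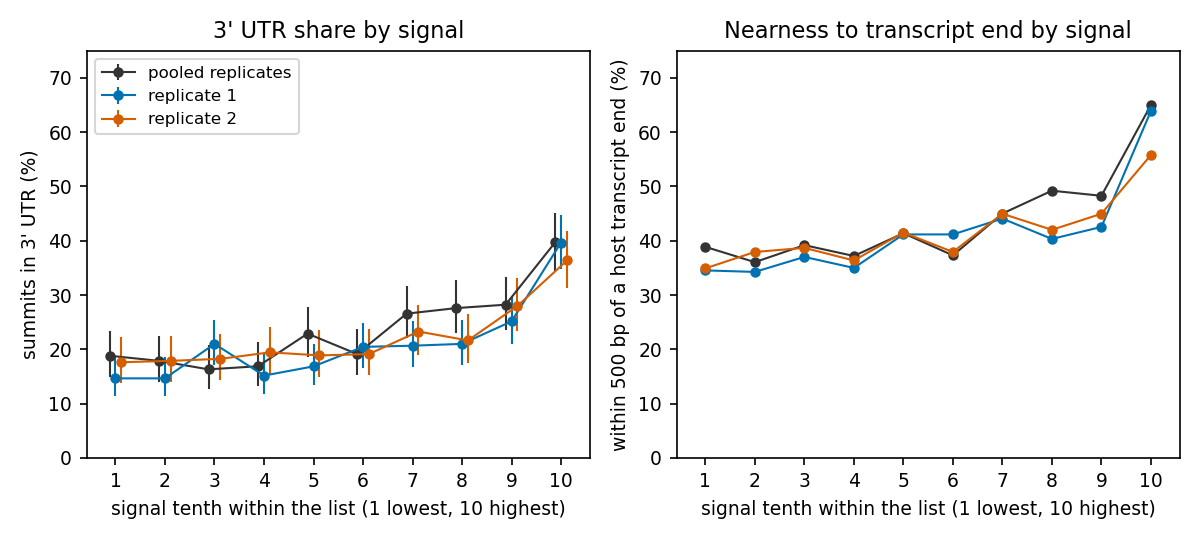
Share of summits in 3′ UTR (left, with 95% Wilson intervals) and within 500 bp of a host transcript end (right) by signal group within the pooled, replicate 1 and replicate 2 lists, where group 1 is the lowest and 10 the highest. The highest group stands above the others in all 3 lists, with 3′ UTR shares of 39.7%, 39.7% and 36.4%.

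The density of regions along genes fell with distance from the end. Distance was taken on either side to the nearest annotated end of any host transcript, so ends of shorter transcripts inside a gene count. Per 100 kb of eligible sequence there were 35.5 regions under 100 bp from such an end and 30.8 from 100 to under 250 bp. There were 21.5 from 250 to under 500 bp and 16.1 from 500 to under 1000 bp. Beyond that the density was level, with 16.1 per 100 kb from 1000 to under 2000 bp and 16.1 farther away. For the highest signal group the values were 6.07 under 100 bp from an end and 0.690 beyond 2000 bp. Replicate 1 gave 35.9 and 18.9 for all its regions and replicate 2 gave 34.3 and 16.6.

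Within CDS the slope was shallow and not even: 18.9 regions per 100 kb under 100 bp from an end, 25.4 from 100 to under 250 bp and 16.2 beyond 2000 bp. Within 3′ UTR the density was 44.0 under 100 bp from an end and 32.4 from 250 to under 500 bp. The relative position along the spliced transcript had a median of 66.97% (56.9% for CDS and 93.8% for 3′ UTR), with 0% at the start. Of all summits, 42.2% were in the last exon, and of those in CDS 24.7%. The exon holding the summit had a median length of 443 bp.

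**Figure D3:**
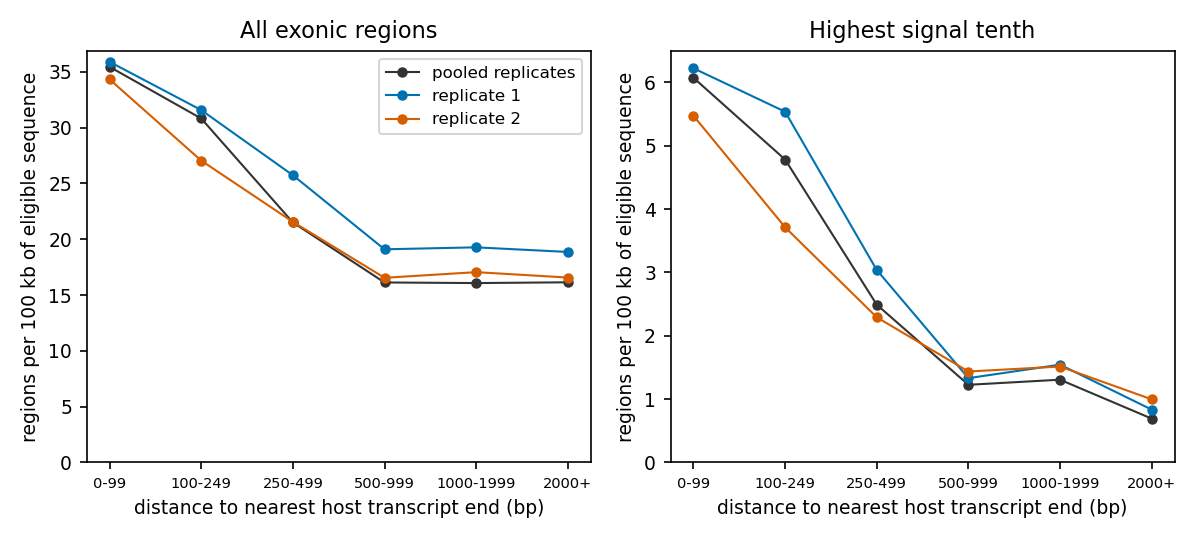
Regions per 100 kb of eligible exonic sequence against the distance to the nearest end of a host transcript, for all exonic regions (left) and the highest signal group (right), in the pooled, replicate 1 and replicate 2 lists. Density is highest under 100 bp from an end, at 35.5, 35.9 and 34.3 regions, and is level from 500 bp in the left panel.

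Ends of convergent genes held many of the high regions. A host was counted as convergent when the next protein-coding gene beyond its end was on the opposite strand and less than 500 bp away or overlapping. This was the case for 11 of the 16 reproducible regions (68.8%), for 180 of 320 regions of the highest signal group (56.3%), for 120 of 319 of the lowest (37.6%) and for 1421 of all 3193 (44.5%). Among the autosomal coding genes with eligible sequence, 31.0% were convergent by this definition, and 33.9% when genes were weighted by their eligible bases. These backgrounds cover whole genes and not only sequence near ends. The rule of over 500 bp from any start also leaves out ends that lie near the start of a following gene. How far this raises the convergent shares was not tested. Part of an exonic region near a convergent end can belong to the facing gene, as at hsp-1 and nra-1, and ChIP-seq does not tell strands apart.

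Some exonic regions had a companion at the start of the host. A pooled region within 500 bp of a start of the host was present for 1555 of the 3193 (48.7%) and was reproducible for 94 (2.94%). The share with a start region was 42.9% in the lowest signal group and 55.9% in the highest. Counted by gene, 1124 of the 2487 host genes (45.2%) had a start region, against 26.6% of all 15190 autosomal coding genes with eligible sequence and 31.5% when these were weighted by their eligible bases. For 502 regions the exonic signal was above that at the start. The start was the higher at cdc-48.1, the p97 ATPase gene, and at lin-35. cdc-48.1 had an exonic signal of 55.4 in its 3′ UTR, with 47.2 in replicate 1 and 11.3 in replicate 2, and a reproducible start region of 176.7. lin-35, the worm retinoblastoma gene, had 57.9 in its 3′ UTR and 78.8 at its start. At hsp-60 the order was the other way, with 73.2 in the 3′ UTR and 22.2 at the start.

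CDS regions were richer in GC than eligible CDS as a whole. Within 50 bp of the summit, CDS regions had a median GC content of 45.5% (quartiles 39.6% and 51.5%), against 40.6% over all eligible CDS bases. The 3′ UTR regions had 31.7% (26.7% and 37.6%), against 30.7% over 3′ UTR bases. Per 100 kb of CDS there were 8.96 regions where GC was 30% to 35%, 22.4 at 45% to 50%, 67.1 at 55% to 60% and 124 at 60% or more. The same highest class had 121 per 100 kb in the replicate 1 list and 118 in the replicate 2 list.

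At equal GC content 3′ UTR held more regions than CDS. At 35% to 40% GC the densities were 43.9 per 100 kb of 3′ UTR and 9.98 of CDS, and at 40% to 45% they were 51.7 and 13.2. By signal, the median GC of CDS regions was 43.6% in the lowest signal group and 48.5% in the highest. The 16 reproducible regions ranged from 21.8% (hsp-6) to 60.4% (C05D11.8), with a median of 38.6%. GC content can alter the yield of sequencing libraries, and its part in these densities was not tested, since no input values were analysed here.

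**Figure D4:**
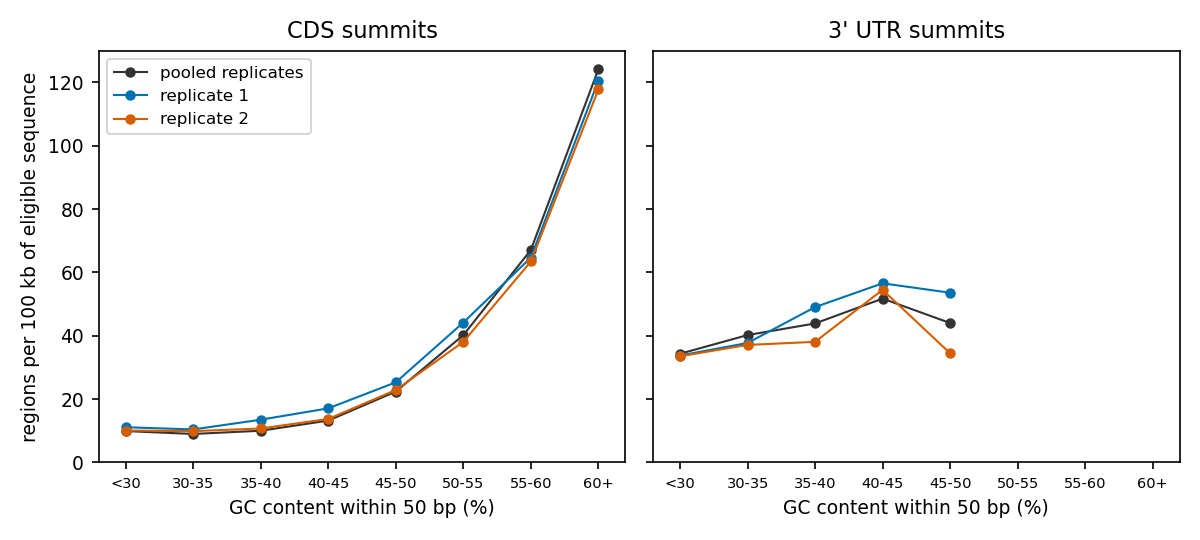
Regions per 100 kb of eligible sequence by GC content within 50 bp of a base, for CDS (left) and 3′ UTR (right), in the pooled, replicate 1 and replicate 2 lists. Classes with under 50 kb of eligible sequence are not drawn. In CDS the density climbs from 8.96 at 30% to 35% to 124 at 60% or more, while in 3′ UTR it stays between 34.3 and 51.7 in the pooled list.

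The replicates shared a minority of the exonic summits. A summit within 100 bp was present in both replicate lists for 642 regions, or 20.1% (Wilson interval 18.8% to 21.5%), against 26.01% of all autosomal regions. In replicate 1 alone there were 1087, in replicate 2 alone 954, and 510 had no summit in either. The shared fraction was 26.2% for 3′ UTR and 18.2% for CDS, and it was 1.88% in the lowest signal group and 65.6% in the highest. The pooled signal is built from both replicates, so this last comparison is not independent of the replicates.

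Looking up the strongest regions of each replicate in the other avoids the pooled ranking. Of the 100 exonic regions with the highest signal in replicate 1, 52 were in 3′ UTR and 58 had a summit within 100 bp among the regions of replicate 2, against 17.03% of the remaining 3523. Of the 100 highest in replicate 2, 52 were also in 3′ UTR and 47 had a summit in replicate 1, against 19.4% of the remaining 3085. Across the 642 shared regions the signals of the replicates were weakly related, with a Spearman rho of 0.26. The value was 0.20 for 446 CDS regions, 0.38 for 196 3′ UTR regions and 0.53 for 3692 autosomal regions of all kinds, and the points share the control and the 2 libraries.

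Most exonic windows were unique in the genome. A 36-base word within 50 bp of the summit that occurred elsewhere was present for 63 of the 3193 regions (1.97%), against 6.93% of all autosomal regions, 8.67% of intronic ones and 10.2% of those outside genes. None of the 16 reproducible regions had one.

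A word frequent at reproducible regions near starts of any gene type, tRNA genes included, was not more frequent in exons than in autosomal regions at large. GTTCGA, read on either strand within 50 bp of the summit, occurred at 4.17% of the exonic regions, 4.71% of all autosomal regions and 21.3% of the 366 reproducible regions near starts. The longer B box consensus of tRNA genes, which contains GTTCGA, occurred at 2 of 3193 exonic regions. It occurred at 150 of 14192 autosomal regions (1.06%) and at 42 of the 366 reproducible regions near starts (11.5%). None of the 16 reproducible regions held GTTCGA in this window. The polyadenylation signal AATAAA of transcript ends, also read on either strand, occurred at 42.97% of 3′ UTR and 7.85% of CDS regions, and at 5 of the 16 reproducible regions. It occurred at 21.2% of all autosomal regions and 13.1% of the reproducible regions near starts.

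Host genes were 2487 of 15190 autosomal protein-coding genes with eligible sequence (16.4%), of which 1936 held 1 region and 551 held more. The share with a region rose with the amount of eligible sequence, from 5.45% among genes with at most 424 bp to 34.1% among those with over 1283 bp. Among the genes with most regions, vab-10, which encodes a spectraplakin, held 11, the ubiquitin ligase gene eel-1 held 9, and set-16, a histone methyltransferase gene, and unc-22, which encodes the muscle protein twitchin, held 6 each. F08D12.12 is 1 of 8 genes that held 5, here in 1506 bp of eligible sequence, and 2 pairs of its regions overlap each other. None of these 5 named genes had a reproducible region, and their highest signals ran from 28.0 at unc-22 to 49.99 at eel-1.

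Gene lists put together by name pattern differed widely in how many members had an exonic region, against 16.4% of all genes. Most of the 34 lists lay above that share, so a share above it does not set a list apart. Lists not described further were also above it, such as splicing (38.3%), DNA replication and cell cycle (37.3%) and proteasome and ubiquitin genes (33.3%). Cuticle collagens and cuticlins, which build the worm's exoskeleton, had one in 68 of 170 genes (40%), germ granule, oocyte and germline regulators in 28 of 59 (47.5%), chaperones in 23 of 53 (43.4%), glycolysis and TCA cycle genes in 14 of 32 (43.8%) and cytosolic ribosomal proteins in 12 of 36 (33.3%). Nuclear pore, nuclear transport and lamina genes had one in 18 of 43 (41.9%), and chromatin modifiers in 31 of 77 (40.3%). Chemoreceptor genes had one in 34 of 1225 (2.78%), F-box, BATH and MATH genes in 14 of 420 (3.33%), detoxification genes of the P450, UGT and GST families in 11 of 167 (6.59%) and nuclear hormone receptors in 21 of 243 (8.64%).

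Lengths differ between lists, so the density per eligible sequence is given too. Over all genes there were 19.8 regions per 100 kb. Ribosomal protein genes had 149, though on only 8032 bp, chaperones 62.0, collagens 59.6, glycolysis and TCA cycle genes 57.2 and germline regulators 50.6, while chemoreceptors had 4.64 and F-box genes 5.35. Nuclear pore genes had 33.2 and chromatin modifiers 30.8. For some lists of long genes the density and the share of genes went opposite ways. Basement membrane genes had a region in 7 of 12 genes (58.3%) but 13.4 per 100 kb, and muscle genes in 13 of 30 (43.3%) but 15.3 per 100 kb. The collagen regions had a median GC content of 59.9% and those of the chemoreceptors 38.6%, against 42.6% over all regions. The share of regions in the highest signal group was 10.0% over all regions. By list it was 25.7% for collagens, 40.5% for chaperones, 29.2% for germline regulators and 41.7% for ribosomal proteins (5 of 12 regions). It was 36.4% for glycolysis and TCA cycle genes, 30% for respiratory chain genes (3 of 10) and 50% for histones (2 of 4). For chemoreceptors it was 2.86% and for translation factors 5.88%. Of the remaining lists whose density is given above, nuclear pore genes and F-box genes (3 of 16 regions) had 18.75% each. Chromatin modifiers had 9.80%, basement membrane genes 6.67% and muscle genes 0%.

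Individual members of these lists below the threshold are given as values. Among germline regulators, car-1, which encodes an RNA-binding protein of germ granules, had a 3′ UTR signal of 64.6 with 59.8 in replicate 2 and no summit in replicate 1. pos-1, a maternal zinc finger gene, had 53.6, with 30.2 and 24.0. cpg-1, an eggshell proteoglycan gene, had 51.7, with 15.3 and 34.8. These 3 lay in 3′ UTR between 14 and 199 bp from the end.

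Among collagens the highest was col-91, with a CDS signal of 63.7, 35.3 in replicate 1 and 26.7 in replicate 2. Its GC content of 70.3% was the highest value seen at an exonic region, shared with col-105, and a gene on the other strand overlaps the summit. The nuclear Argonaute gene hrde-1 had 48.2, with 24.3 and 20.2, 2773 bp from the end. lin-12, a Notch receptor gene, had 61.1 in its 3′ UTR, with 27.8 and 34.0. icl-1, the glyoxylate cycle gene, had a CDS signal of 50.9, with 24.0 and 34.3.

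The integration site of the transgene is not known here, so the native loci of the tagged gene and of unc-119 were looked at instead. Within 20 kb of T07F8.4, on chromosome II, 1 of 5 pooled regions was exonic, in F10E7.2, with a signal of 17.4. Within 20 kb of unc-119 on chromosome III, 5 of 10 were, the highest in athp-1 with 32.8. None of these was reproducible. By chromosome the exonic regions numbered 616, 641, 677, 568 and 691 on I to V, or 16.9 to 22.9 per 100 kb of eligible sequence, and the 16 reproducible ones numbered 3, 2, 6, 2 and 3.

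**Figure D5:**
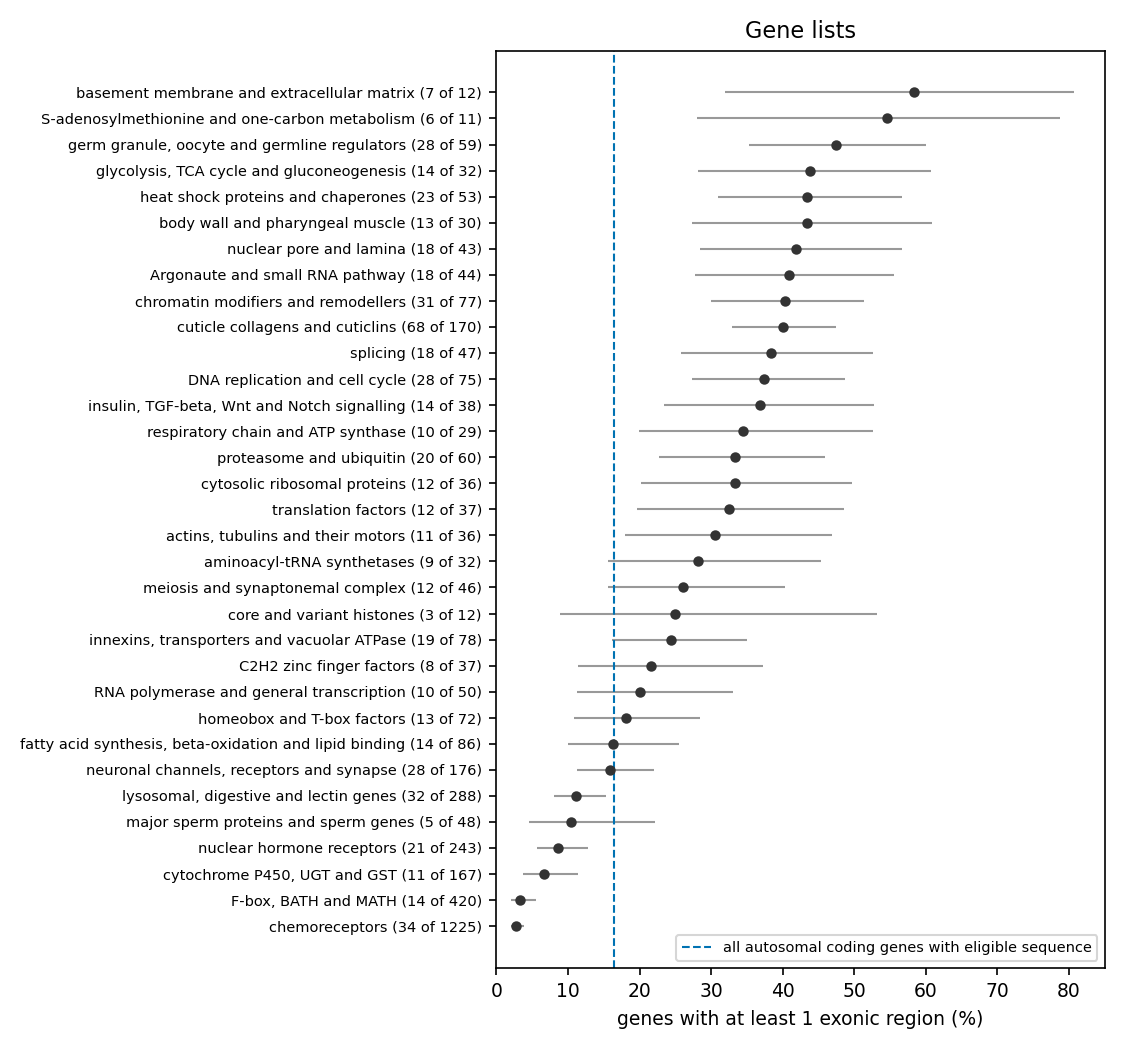
Percent of the genes of each list that have at least 1 exonic region, with 95% Wilson intervals, for the lists with 10 or more genes, the dashed line marking 16.4% of all autosomal coding genes with eligible sequence. Most lists lie right of the line, among them the germline, chaperone, glycolysis and TCA cycle, nuclear pore and collagen lists. Chemoreceptor and F-box lists lie left of it.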

How the data were processed

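ChIP-seq region lists of 2 biological replicates were used, on build ce11, which matched the chromosomes of the reference. Per the deposited descriptions, the authors made a list for each replicate and for the pooled replicates from the alignments and 1 further file, and selected the reproducible list by IDR. For the aligner, the caller and the IDR cutoff, no source used here gives a name or version. Each deposited region carries the authors' signal value (scale not given) and a q-value as −log10, deposited by the authors and not used for ranking. The lists held 16958, 19514 (replicate 1) and 17499 (replicate 2) regions. Of the ce10 lists only the lowest signal of the reproducible one was used, and its other lists were not used.

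Summits were placed by Ensembl 115 on WBcel235, with CDS before 3′ UTR where annotations overlap. GC content was taken over 101 bp, summits within 100 bp counted as shared, and words of 36 bases were searched in the whole genome. Wilson intervals (95%) cover counting error only and treat overlapping regions as separate counts. With 1 group of 2 replicates there was no test, and regions are not replicates. Python 3.11.15, numpy 2.4.6, pandas 2.3.3, scipy 1.17.1 and matplotlib 3.10.9 were used, and the scripts were tested on simulated data. Exonic regions and the 34 gene lists, made by name pattern, were chosen with earlier results of these data known. Named were all reproducible regions, those next to the threshold, hosts with most regions, the highest members of the lists, and regions within 20 kb of T07F8.4 or unc-119. Alternatives in the definition, windows and lists were tried, and the ce10 threshold and counting the overlapping hsp-1 and nra-1 regions once were added after seeing the data.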

Additional observations from a re-analysis of the deposited data

How the results depend on the processing

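Of 55 recomputed values, 29 stayed close to the reported one and 26 moved. Counts were called close within 1.5 times, the shared fraction within its counting interval, and other shares and medians within 1 SD of the 2 replicate lists, a narrow bound that also moves values inside their counting interval. The comparisons between sequence classes and signal groups were recomputed in the replicate lists only. The count of 3193 regions became 2038 with 1000 bp from starts. The reproducible share of 0.501% was 0.635% with 250 bp from starts, 0.756% with starts of protein-coding transcripts only, 0.157% for the 310 highest regions and 0.877% with the ce10 threshold, chosen after seeing the data. The 3′ UTR share of 23.4% was 22.05% for summits in exactly 1 coding gene and 25.1% with 3′ UTR before CDS. The median GC content of 42.6% was 43.6% for summits in exactly 1 gene, 45.1% with 25 bp and 41.3% with 100 bp each side. The shared fraction of 20.1% was 12.2% within 50 bp and 31.4% within 200 bp. The median relative position of 66.97% was 64.5% with 250 bp and 69.6% with 1000 bp from starts. The median distance to the end of 668 bp was 780 bp with 1000 bp from starts and 714 bp for summits in exactly 1 gene. The share with repeated words of 1.97% was 2.21% with 250 bp from starts and 0.846% with words of 50 bases. The cause of these shifts was not tested.

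With 1 replicate list in place of the pooled one, the count ran from 3185 to 3623, the reproducible share from 0.442% to 0.502%, the 3′ UTR share from 20.9% to 22.04%, the relative position from 65.0% to 66.1%, the end distance from 746 to 757 bp and the repeated share from 2.10% to 2.32%, while the median GC content was 42.6% in both. For the reproducible share, a region of a replicate list was counted when its summit lay within 100 bp of one in the reproducible list. That held for 16 regions in each replicate list, so the share differed only through the size of the list. The reproducible list itself comes from the pooled replicates, so this share is not a separate measurement. The fraction shared by both lists has no value with 1 list. No paired analysis was possible because there is 1 group and no comparison between groups. Read depth is unknown, so differences between replicate lists cannot be set against it.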
